A study of Mus musculus with 20 samples.

Results

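Collagen and laminin genes were measured in whole testes of AKR/N and C57BL/6 mice that had been heated or left unheated. The members were all genes whose symbol begins with Col, a number, the letter a and a number, or with Lama, Lamb or Lamc and a number. This gave 52 genes, 42 collagens and 10 laminins, of the 18193 genes that the chip annotation names by single-gene probe sets. Each gene was read by the single-gene probe set with the highest mean log2(signal + 16) over all arrays. The genes were 47 of 15762 tested after a filter on low signal, of which 37 were collagens and 10 laminins. Col9a2, Col24a1, Col10a1, Col6a5 and Col13a1 were not tested, because the highest of their group means lay below a signal of 17.5. The nearest of these to the filter was Col13a1, with a highest group mean of 11.5, and the nearest tested members above it were Lama4 with 22.2 and Col8a2 with 23.2.

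The AKR/N groups were testes taken 8, 10, 12 and 24 h after exposure to 43 °C for 15 min (heat shock), and unheated controls. The C57BL/6 groups were the same. All mice were 8 weeks old, and each of the 10 groups had 2 arrays of an Affymetrix mouse genome chip, 20 arrays in all. Both strains are inbred. The labels do not say if both arrays of a group stem from different animals. The p-values therefore measure only how far these samples spread, and that spread may be technical. No time is given for the controls, so heat and time of sampling cannot be told apart in comparisons with them.

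Collagens are triple helices of 3 chains each. Fibrillar collagens such as types I, III and V form the fibres of connective tissue, and type IV collagen forms the sheet-like network of basement membranes. Laminins join an alpha, a beta and a gamma chain and polymerise into the other network of the basement membrane, which nidogen and perlecan link to type IV collagen. In the testis a basement membrane surrounds each seminiferous tubule and is laid down by Sertoli cells inside and peritubular myoid cells outside, while fibrillar collagens lie in the tubule wall and the interstitium.

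The promoters of 5 members that were higher after heat are shown because these genes carry the main changes described here, and because Col4a1 and Col4a2 share theirs. The sequences run 5′ to 3′ on the strand of the gene, from 250 bases before to 50 bases after the start, and come from RefSeq on build GRCm38.p6. Capitals mark matches on either strand to GAANNTTC or TTCNNGAA (cores of the heat shock element), to CCAAT (the box bound by NF-Y), to GGGCGG (the GC box bound by Sp1), to TATAAA (the box near many starts) and to TGANTCA (the AP-1 site). The Col4a1 window is chr8:11312777-11313076 on the minus strand and the Col4a2 window is chr8:11312555-11312854 on the plus strand, and they share 78 bases. The Col4a5 window is chrX:141475169-141475468, the Col3a1 window is chr1:45311288-45311587 and the Col1a2 window is chr6:4505368-4505667, all on the plus strand.
Col4a1: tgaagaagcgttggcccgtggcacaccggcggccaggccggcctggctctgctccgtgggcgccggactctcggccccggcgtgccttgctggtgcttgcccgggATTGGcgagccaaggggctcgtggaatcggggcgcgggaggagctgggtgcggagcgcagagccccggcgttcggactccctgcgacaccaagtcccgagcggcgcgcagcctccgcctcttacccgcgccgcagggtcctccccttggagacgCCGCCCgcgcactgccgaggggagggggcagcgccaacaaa
Col4a2: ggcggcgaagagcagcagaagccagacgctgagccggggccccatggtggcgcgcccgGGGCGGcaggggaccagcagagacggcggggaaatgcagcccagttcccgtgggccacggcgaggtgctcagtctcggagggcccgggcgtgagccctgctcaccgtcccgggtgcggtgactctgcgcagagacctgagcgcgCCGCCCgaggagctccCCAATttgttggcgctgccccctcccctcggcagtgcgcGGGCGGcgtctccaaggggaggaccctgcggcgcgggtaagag
Col4a5: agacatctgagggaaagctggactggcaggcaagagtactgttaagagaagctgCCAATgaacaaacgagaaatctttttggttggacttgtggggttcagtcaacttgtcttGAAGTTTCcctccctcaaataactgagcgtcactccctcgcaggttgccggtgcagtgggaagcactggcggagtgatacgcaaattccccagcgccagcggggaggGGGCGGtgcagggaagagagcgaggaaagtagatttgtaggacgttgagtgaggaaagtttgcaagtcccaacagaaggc
Col3a1: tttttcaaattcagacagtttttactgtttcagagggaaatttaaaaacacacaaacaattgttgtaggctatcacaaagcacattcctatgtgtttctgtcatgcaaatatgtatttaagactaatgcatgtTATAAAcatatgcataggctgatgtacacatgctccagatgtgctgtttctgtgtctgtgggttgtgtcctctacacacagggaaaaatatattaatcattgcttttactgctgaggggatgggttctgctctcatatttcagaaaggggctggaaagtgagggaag
Col1a2: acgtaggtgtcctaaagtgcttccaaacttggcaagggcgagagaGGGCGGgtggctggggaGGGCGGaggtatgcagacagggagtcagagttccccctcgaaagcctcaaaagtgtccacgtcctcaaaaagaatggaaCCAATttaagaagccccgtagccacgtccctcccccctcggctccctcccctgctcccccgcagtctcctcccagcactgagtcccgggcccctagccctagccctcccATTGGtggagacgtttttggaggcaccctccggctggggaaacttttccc

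A window was found for 38 of the 52 members, 42 windows in all, and Col1a1, Col5a2, Col4a3 and Col22a1 are among those named without one. The Col4a5 window held 1 match to GAANNTTC, at base -137 from the start. The other 4 windows shown held no match to GAANNTTC or TTCNNGAA. Of all 32851 windows, 7.86% held GAANNTTC and 8.52% held TTCNNGAA, against 4.76% and 2.38% of the member windows. GGGCGG was in 59.5% of member windows, against 35.7% of all windows, and the Col4a2 window held 3 matches and the Col3a1 window 0. CCAAT was in 33.3% of member windows and 37.4% of all windows. TATAAA was in 11.9% of member windows and 13.6% of all, and TGANTCA in 2.38% and 7.81%. The only TATAAA among the 5 windows was that of Col3a1, at base -117. These matches describe letters in the windows and not binding sites. Several members are neighbours in the annotation: Col4a1 and Col4a2 on chromosome 8, Col4a3 and Col4a4 on chromosome 1, Col4a5 and Col4a6 on chromosome X, Col3a1 and Col5a2 on chromosome 1, and Col6a1 and Col6a2 on chromosome 10.

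The arrays had median signals of 24.9 to 34.9, and replicates correlated with Pearson's r of 0.973 to 0.989 across probe sets. The ratio of the 3′ to the 5′ actin control signals, a sign of RNA quality, lay between 1.87 and 3.57 and was highest on C57BL/6 12 h replicate 2. All 6 spermatocyte and 8 spermatid markers examined were above the low-signal filter in the controls and at 24 h in both strains. The precision is limited by the 2 arrays of each group. Changes below are differences of log2(signal + 16) between group means with the standard error (SE) of the limma fit over all 20 arrays, and "called" means an adjusted p (Benjamini-Hochberg over 15762 genes) under 0.05. This scale understates the changes of dim genes. In whole testes, fewer cells of a type and less RNA per cell cannot be told apart.

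Most calls among the collagens and laminins came at 24 h. At 8 h no member was called in AKR/N or C57BL/6 testes, where 0.0381% and 0.0888% of all tested genes were called. An unadjusted p under 0.05 was seen for 1 and 3 of 47 members, and for 1568 and 1209 of all 15762 genes. At 10 h 1 member was higher in AKR/N testes (Col4a1), where 2.63% of all genes were called, 1.44% higher and 1.19% lower. Another 4 calls, all higher, were made in C57BL/6 testes at 10 h, where 11.2% of all genes were called, 6% higher and 5.19% lower. At 12 h 2 members were higher in AKR/N, beside 7% of all genes called (3.8% higher and 3.2% lower), and 4 were higher in C57BL/6, beside 19.1% (9.71% higher and 9.38% lower). At 24 h 4 members were higher and 5 lower in AKR/N testes, or 19.1% of members, where 23.4% of all genes were called (12.3% higher and 11.1% lower). In C57BL/6 testes 12 were higher and 2 lower at 24 h, or 29.8% of members, where 38% of all genes were called (21.4% higher and 16.6% lower). The share of members called was near or below that of all genes at these times, and what follows describes which chains moved and not an excess of calls. With each array centred on its median, the genes called in C57BL/6 were higher for 724 of 2401 at 12 h and 2311 of 5300 at 24 h. Over all heat comparisons 13 members were called higher at least once, 7 lower and 27 never. The matching count over all tested genes was not made, so these numbers do not set the members apart.

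**Figure D1:**
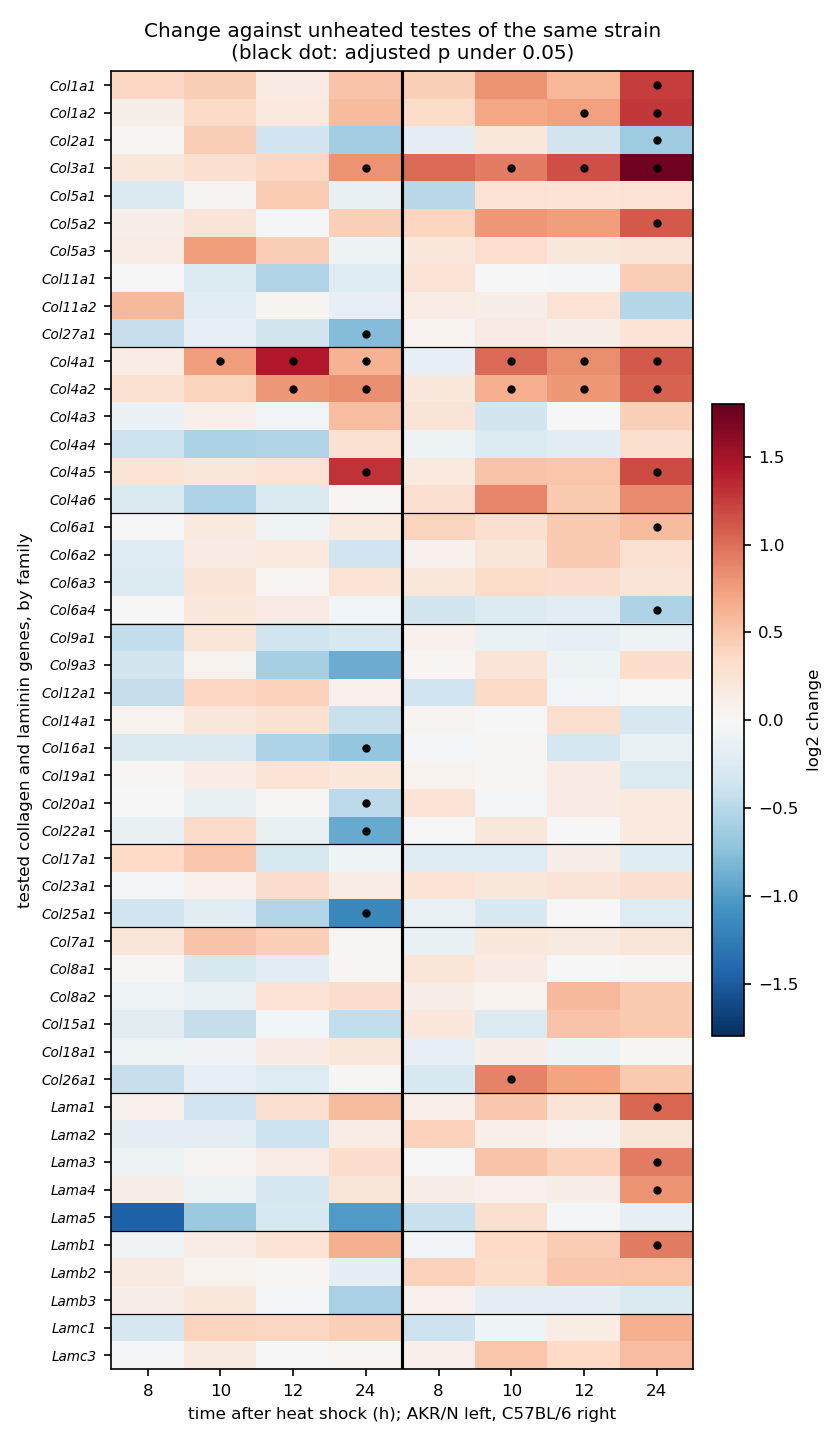
Log2 change of each of the 47 tested members (rows, grouped by family) against unheated testes of the same strain at 8, 10, 12 and 24 h after heat, with the 4 AKR/N columns left of the 4 C57BL/6 columns. Black dots mark adjusted p under 0.05, and the dots lie mostly in the 24 h columns, 9 in AKR/N and 14 in C57BL/6.

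The median change of the members at 24 h was 0.04 in AKR/N testes, where that of all tested genes was -0.01. In C57BL/6 testes it was 0.28, where that of all genes was 0.08. Centring each array on its median moved the all-gene median of C57BL/6 at 24 h to -0.05 and the member median to 0.16. The members called at 24 h were then 4 higher and 4 lower in AKR/N and 11 higher and 2 lower in C57BL/6. The time points of a strain share its 2 control arrays, so calls at several times are not independent of each other. When the fit used only the arrays of a comparison, no member was called at 10 h or 12 h in either strain and 4 were called at 24 h in AKR/N. Every member called higher in AKR/N testes at 24 h (Col3a1, Col4a1, Col4a2 and Col4a5) was also called higher in C57BL/6 testes, where these were 4 of 12. None of the 5 members lower in AKR/N was among the 2 lower in C57BL/6. These overlaps rest on few calls and were not counted over all tested genes, so they do not set the members apart.

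Col4a1, Col4a2 and Col4a5, chains of the type IV collagen of basement membranes, rose in both strains. Of the 6 type IV chains, 3 were called higher at 24 h in AKR/N and the same number in C57BL/6. None was called lower at any time, and all 6 changes at 24 h were above 0 in both strains. Over all tested genes at 24 h, 12.3% were called higher in AKR/N and 21.4% in C57BL/6. Changes above 0 were seen for 48.8% and 55.4% of all tested genes. Col4a1 and Col4a2 encode the chains of the type IV collagen found in nearly all basement membranes. In AKR/N testes Col4a1 had signals of 103 and 102 in controls, 108 and 121 at 8 h, 199 and 169 at 10 h, 330 and 283 at 12 h, and 159 and 176 at 24 h. All arrays from 10 h on lay above the AKR/N controls, and the 12 h arrays were the highest. Its change was 0.75 ± 0.15 (SE) at 10 h (adjusted p = 0.023), 1.44 ± 0.15 at 12 h (adjusted p = 0.000318) and 0.63 ± 0.15 at 24 h (adjusted p = 0.00953). The C57BL/6 testes gave Col4a1 signals of 136 and 130 in controls, 133 and 106 at 8 h, 306 and 268 at 10 h, 273 and 229 at 12 h, and 336 and 277 at 24 h. From 10 h on no array overlapped the C57BL/6 controls. The changes were 1.02 ± 0.15 at 10 h (adjusted p = 0.00226), 0.84 ± 0.15 at 12 h (adjusted p = 0.00246) and 1.11 ± 0.15 at 24 h (adjusted p = 8.98e-05), the last being 2.16-fold. The strain difference in these heat changes was not called at 10, 12 or 24 h (adjusted p = 0.658, 0.419 and 0.234). The AKR/N call at 10 h was lost without control replicate 1 of AKR/N (adjusted p = 0.135), control replicate 2 (0.0764) or 10 h replicate 1 (0.147), and that at 24 h without 24 h replicate 2 (0.0884). The other Col4a1 probe set moved alike, by 0.75 in AKR/N and 1.09 in C57BL/6 at 24 h.

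Col4a2, which shares its promoter with Col4a1, had signals in AKR/N testes of 114 and 99.9 in controls, 133 and 131 at 8 h, 143 and 150 at 10 h, 187 and 205 at 12 h, and 173 and 237 at 24 h. For C57BL/6 testes the signals were 111 and 112 in controls, 136 and 123 at 8 h, 194 and 177 at 10 h, 224 and 184 at 12 h, and 245 and 254 at 24 h. Every heated array of either strain was above the controls of its strain. The changes in AKR/N were 0.79 ± 0.14 at 12 h (adjusted p = 0.00756) and 0.83 ± 0.14 at 24 h (adjusted p = 0.00175). Those in C57BL/6 were 0.66 ± 0.14 at 10 h (adjusted p = 0.0127), 0.78 ± 0.14 at 12 h (adjusted p = 0.00281) and 1.06 ± 0.14 at 24 h (adjusted p = 9.33e-05). The AKR/N call at 12 h was lost without control replicate 2 of AKR/N (adjusted p = 0.0531). The C57BL/6 call at 10 h was lost without control replicate 1 of C57BL/6 (adjusted p = 0.0761), control replicate 2 (0.0692) or 10 h replicate 1 (0.0816).

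Col4a5, an X-linked chain that joins other type IV trimers, was called at 24 h in both strains and at no earlier time. Its AKR/N signals were 34.6 and 31.7 in controls, 38.2 and 46.1 at 8 h, 40.5 and 39.6 at 10 h, 49.7 and 36.6 at 12 h, and 88.6 and 125 at 24 h. Its C57BL/6 signals were 23.4 and 32.7 in controls, 32.2 and 34.4 at 8 h, 44.1 and 48.7 at 10 h, 43.3 and 48.9 at 12 h, and 106 and 64.6 at 24 h. The 24 h arrays stood above all earlier arrays of their strain. The change at 24 h was 1.31 ± 0.20 in AKR/N (adjusted p = 0.000844), or 2.47-fold, and 1.18 ± 0.20 in C57BL/6 (adjusted p = 0.00041), or 2.26-fold. A second Col4a5 probe set moved less, by 0.13 in AKR/N and 0.52 in C57BL/6.

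The other type IV chains were not called after heat. Col4a3, found with Col4a4 and Col4a5 in specialised basement membranes, had 38.3 and 42.4 in AKR/N testes at 24 h, against 20.7 and 24.4 in AKR/N controls. The C57BL/6 arrays read 66.3 and 71 at 24 h, against 48.6 and 45.1 in C57BL/6 controls. The arrays did not overlap in either strain, but the changes of 0.55 ± 0.22 in AKR/N and 0.43 ± 0.22 in C57BL/6 missed the threshold (adjusted p = 0.0942 and 0.154). The other Col4a3 probe set, above the filter, moved by 0.38 in AKR/N and 0.07 in C57BL/6 at 24 h. Col4a4 had signals in AKR/N testes of 310 and 299 in controls, 240 and 221 at 8 h, 175 and 230 at 10 h, 199 and 207 at 12 h, and 374 and 366 at 24 h. The intermediate times were below the controls and 24 h above them, with no change called (adjusted p = 0.109 at 10 h, 0.0781 at 12 h and 0.296 at 24 h). Col4a6 was dim and spread widely, with 67.8 and 28.8 in AKR/N testes and 53.9 and 7.18 in C57BL/6 testes at 24 h.

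**Figure D2:**
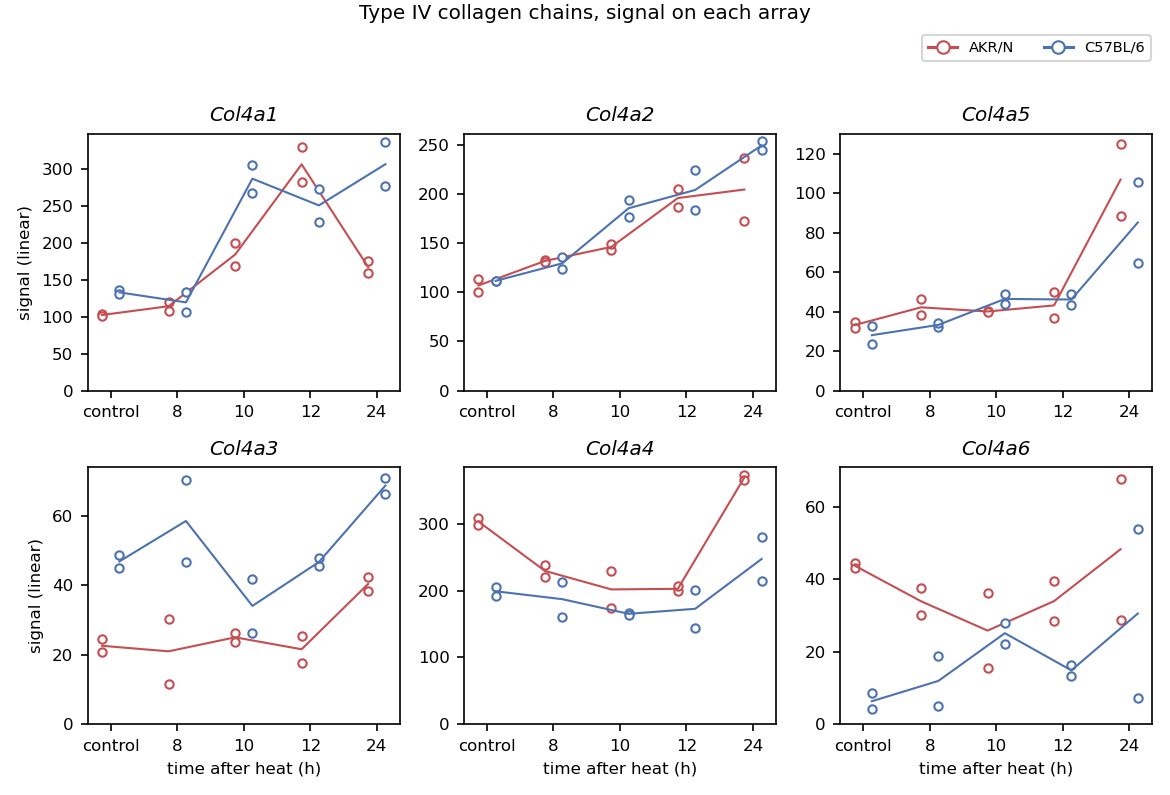
Signal of the 6 type IV collagen chains on each array (open circles, linear scale from 0) in controls and at 8, 10, 12 and 24 h after heat, with lines through the means of 2 arrays, AKR/N in red and C57BL/6 in blue. Col4a1 and Col4a2 are above controls from 10 h on, and Col4a5 reaches 88.6 and 125 in AKR/N and 106 and 64.6 in C57BL/6 at 24 h.

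Among the fibrillar collagens, Col3a1, Col1a2, Col1a1 and Col5a2 rose at 24 h in C57BL/6 testes. Of the 10 tested, 1 was called higher and 1 lower in AKR/N at 24 h, and 4 were higher and 1 lower in C57BL/6. The shares of all genes were 12.3% higher and 11.1% lower in AKR/N, and 21.4% and 16.6% in C57BL/6. Col3a1, the single chain of type III collagen in elastic connective tissue, had the largest called change of any member. Its AKR/N signals were 312 and 267 in controls, 327 and 336 at 8 h, 356 and 360 at 10 h, 367 and 389 at 12 h, and 417 and 636 at 24 h. Its C57BL/6 signals were 212 and 162 in controls, 445 and 343 at 8 h, 376 and 358 at 10 h, 361 and 518 at 12 h, and 811 and 540 at 24 h. Every heated array was above the controls of its strain, also at 8 h, where no change was called. The change at 24 h was 0.80 ± 0.23 in AKR/N (adjusted p = 0.0249) and 1.75 ± 0.23 in C57BL/6 (adjusted p = 8.14e-05), or 3.36-fold. In C57BL/6 it was also called at 10 h (0.92 ± 0.23, adjusted p = 0.0238) and 12 h (1.15 ± 0.23, adjusted p = 0.00478). The difference between the strains at 24 h was -0.95 and was not called (adjusted p = 0.138). The other Col3a1 probe set, above the filter, moved less at 24 h, by 0.65 in AKR/N and 0.98 in C57BL/6. Its difference between the strains was -0.33. The AKR/N call was lost without control replicate 1 of AKR/N (adjusted p = 0.0578), control replicate 2 (0.129) or 24 h replicate 2 (0.255, with a change of 0.51), and with the mean of all probe sets (0.0607). The C57BL/6 call at 10 h ended without any of its 4 arrays in turn (adjusted p of 0.0622 and 0.173 without control replicates 1 and 2, and 0.107 and 0.0891 without 10 h replicates 1 and 2). The call at 12 h was lost without control replicate 2 of C57BL/6 (0.0561).

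Col1a2 and Col1a1 encode the chains of type I collagen, the main collagen of fibrous tissue. Col1a2 had 258 and 354 in AKR/N testes at 24 h, against 206 and 193 in AKR/N controls, and the change of 0.56 ± 0.21 was not called (adjusted p = 0.0718). The C57BL/6 signals were 141 and 171 in controls, 243 and 162 at 8 h, 235 and 291 at 10 h, 245 and 296 at 12 h, and 463 and 342 at 24 h. The arrays from 10 h on were above both C57BL/6 controls. The change was 0.74 ± 0.21 at 12 h (adjusted p = 0.0283) and 1.27 ± 0.21 at 24 h (adjusted p = 0.000408), or 2.42-fold. The 12 h call ended after median centring (adjusted p = 0.0582) and without control replicate 1 of C57BL/6 (0.163), control replicate 2 (0.0658) or 12 h replicate 2 (0.157). A second Col1a2 probe set above the filter moved by 0.79 in AKR/N and 1.48 in C57BL/6 at 24 h. Col1a1 had 79.9 and 120 in AKR/N testes at 24 h, against 57.5 and 70.5 in AKR/N controls (0.52 ± 0.25, adjusted p = 0.149). The C57BL/6 values of Col1a1 were 146 and 118 at 24 h, against 53.9 and 39.8 in controls. The C57BL/6 groups were well apart, with a change of 1.24 ± 0.25 (adjusted p = 0.0015), while the other Col1a1 probe set moved by 0.47.

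Col5a2, a chain of type V collagen that sits inside type I fibrils and is the genomic neighbour of Col3a1, had 26.2 and 37.9 in AKR/N testes at 24 h, against 17.6 and 21.6 in AKR/N controls. C57BL/6 testes had 61.8 and 40.4 at 24 h, against 24.1 and 7.7 in controls. Neither strain's groups overlapped. The change was 0.42 ± 0.28 in AKR/N (adjusted p = 0.297) and 1.10 ± 0.28 in C57BL/6 (adjusted p = 0.00685). The C57BL/6 call was lost without control replicate 2 of C57BL/6 (adjusted p = 0.0989, with a change of 0.72) or 24 h replicate 1 (0.0758). Col2a1, the collagen of cartilage, was lower by call in C57BL/6 at 24 h (-0.64), with a change of -0.63 in AKR/N that was not called. In type VI collagen, which forms beaded filaments around cells, Col6a1 was higher in C57BL/6 at 24 h by 0.57. Its neighbour Col6a2 was not called, with changes of -0.35 in AKR/N and 0.28 in C57BL/6, although its other probe set moved by 0.69 and 1.27.

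Laminin chains were called in C57BL/6 testes and not in AKR/N testes at 24 h. In C57BL/6, 4 of 10 were higher. In AKR/N none was called, and 4 had an unadjusted p under 0.05, as did 5731 of all 15762 genes. Beside these, 21.4% of all tested genes were called higher in C57BL/6 and 12.3% in AKR/N. No laminin showed a called difference between the strains' heat changes. Lama1 encodes an alpha chain of the tubule basement membrane. It had 76.6 and 92.3 in AKR/N testes at 24 h, against 43.3 and 61.2 in AKR/N controls. C57BL/6 testes had 106 and 101 at 24 h, against 45.3 and 39.6 in controls. The groups did not overlap in either strain. The change was 0.57 ± 0.21 in AKR/N (adjusted p = 0.072) and 1.03 ± 0.21 in C57BL/6 (adjusted p = 0.00186), and the difference between them of -0.47 had an adjusted p of 0.421.

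Lamb1, a widely used beta chain, had 183 and 140 in AKR/N testes at 24 h, against 93 and 101 in AKR/N controls. The signals in C57BL/6 testes were 134 and 168 at 24 h, against 76.8 and 65.4 in controls. Again the groups were apart in both strains, with changes of 0.64 ± 0.24 in AKR/N (adjusted p = 0.0659) and 0.94 ± 0.24 in C57BL/6 (adjusted p = 0.00666). The C57BL/6 call was lost without control replicate 2 of C57BL/6 (adjusted p = 0.0535) or 24 h replicate 2 (0.0598), and 2 other Lamb1 probe sets above the filter moved by 0.04 and 0.65 in C57BL/6. Lama3, the alpha chain of the laminin that anchors skin epithelium, had 33.8 and 38.1 in AKR/N testes at 24 h, against 35.8 and 17.4 in AKR/N controls. Signals in C57BL/6 testes were 40.1 and 32.9 at 24 h, against 8.32 and 14.6 in controls. The AKR/N groups overlapped and the C57BL/6 groups did not. The change was 0.32 ± 0.30 in AKR/N (adjusted p = 0.473) and 0.94 ± 0.30 in C57BL/6 (adjusted p = 0.0224). That call was lost without control replicate 1 of C57BL/6 (adjusted p = 0.14), 24 h replicate 1 (0.119) or 24 h replicate 2 (0.0544), after quantile normalization (0.05) and with a pseudocount of 1 (0.0727, with a change of 1.63). Both C57BL/6 controls of Lama3 were under the filter signal of 17.5, which leaves the size of its change uncertain. Lama4, an alpha chain of vessels and mesenchyme, had 20.2 and 24.2 in C57BL/6 testes at 24 h, against 3.86 and 7.91 in controls. It was called at 0.81, but only the 24 h groups of C57BL/6 and AKR/N reached the filter signal. Lama4 thus entered the test through the groups where it was high, and the size is uncertain. Its other probe set, below the filter, moved by -0.15. The gamma chains Lamc1 and Lamc3, needed with the others for a trimer, were not called, at 0.43 and 0.03 in AKR/N and 0.65 and 0.55 in C57BL/6. Lama5 had 22.2 to 35 in AKR/N testes at 24 h, against 72.4 to 73.7 in AKR/N controls, and its change of -1.01 ± 0.41 missed the threshold (adjusted p = 0.0933).

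**Figure D3:**
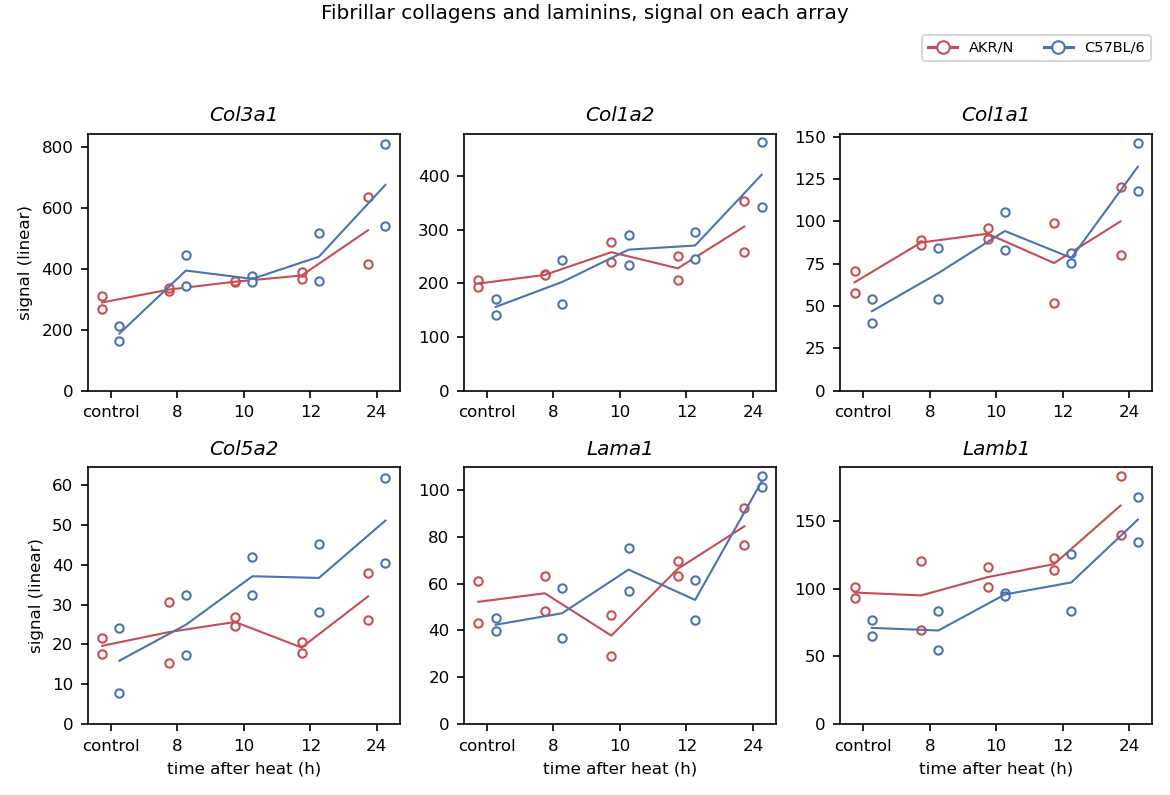
Signal of 4 fibrillar collagen chains and 2 laminin chains on each array (open circles, linear scale from 0) in controls and at 8, 10, 12 and 24 h after heat, with lines through the means of 2 arrays, AKR/N in red and C57BL/6 in blue. Col3a1 at 24 h reaches 417 and 636 in AKR/N and 811 and 540 in C57BL/6.

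The collagens called lower in AKR/N testes at 24 h were Col25a1, Col22a1, Col27a1, Col16a1 and Col20a1. Of these, 3 belong to the FACIT collagens, which attach to the surface of fibrils. Among the 8 tested FACIT chains, 3 were called lower in AKR/N and none in C57BL/6 at 24 h. Over all tested genes, 11.1% were called lower in AKR/N and 16.6% in C57BL/6. Col22a1, a FACIT collagen of tissue junctions such as that of muscle and tendon, moved apart between the strains at 24 h. Its AKR/N signals were 1266 and 1161 in controls, 1140 and 1076 at 8 h, 1629 and 1460 at 10 h, 1229 and 1001 at 12 h, and 677 and 605 at 24 h. Its C57BL/6 signals were 956 and 978 in controls, 1034 and 906 at 8 h, 1009 and 1232 at 10 h, 863 and 1084 at 12 h, and 1095 and 1091 at 24 h. Both AKR/N arrays at 24 h were below every other array. The change at 24 h was -0.91 ± 0.15 in AKR/N (adjusted p = 0.00139) and 0.17 ± 0.15 in C57BL/6 (adjusted p = 0.401). The difference between these changes, -1.08 ± 0.21 (adjusted p = 0.0276), was the single called interaction among the members at 24 h, when 1.76% of all genes were called (0.939% above and 0.818% below 0, and 66 of 96 above 0 after median centring). This interaction call ended without any of its 8 arrays in turn. The adjusted p was 0.105 and 0.0522 without AKR/N control replicates 1 and 2, and 0.0839 and 0.0786 without AKR/N 24 h replicates 1 and 2. It was 0.0961 and 0.0842 without C57BL/6 control replicates 1 and 2, and 0.109 and 0.0717 without C57BL/6 24 h replicates 1 and 2. The other Col22a1 probe sets, with mean signals of 17.6 and 9.02, moved the other way in AKR/N at 24 h, by 0.69 and 0.63. With the mean of all its probe sets the AKR/N change was 0.14 (adjusted p = 0.653) and the interaction 0.18 (adjusted p = 0.773), so the direction for Col22a1 rests on the probe set used.

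Col20a1, a FACIT collagen, had 515 and 419 in AKR/N testes at 24 h, against 665 and 636 in AKR/N controls. The C57BL/6 arrays had 720 and 705 at 24 h, against 617 and 647 in controls. The groups were apart in both strains, in opposite directions. The change was -0.47 ± 0.12 in AKR/N (adjusted p = 0.0155) and 0.17 ± 0.12 in C57BL/6 (adjusted p = 0.317), and the interaction of -0.64 was not called (adjusted p = 0.075). The AKR/N call was lost without control replicate 1 of AKR/N (adjusted p = 0.0805) or 24 h replicate 2 (0.178), after median centring (0.0631) and with the mean of all probe sets (0.0584). Col16a1, another FACIT collagen, had signals in AKR/N testes of 532 and 526 in controls, 429 and 449 at 8 h, 444 and 432 at 10 h, 357 and 350 at 12 h, and 323 and 317 at 24 h. Every heated AKR/N array was below both controls, and the 24 h arrays were the lowest. The change of -0.70 ± 0.18 at 24 h (adjusted p = 0.0161) lost its call without any of its 4 arrays in turn (0.0709 and 0.0635 without control replicates 1 and 2, and 0.0561 and 0.0964 without 24 h replicates 1 and 2). Col16a1 in C57BL/6 testes had 387 and 300 at 24 h, against 371 and 369 in controls, and these overlapped.

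Col27a1, a fibrillar collagen best known from cartilage, changed by -0.78 in AKR/N at 24 h, a called change, and its other probe set above the filter moved by 0.14. Col25a1, a membrane-spanning collagen of neurons, had 7.5 and 3.72 in AKR/N testes at 24 h, against 47 and 20.6 in AKR/N controls. In C57BL/6 testes it had 4.79 and 7.31 at 24 h, against 10.5 and 9.24 in controls, so that signals in C57BL/6 and in heated AKR/N testes at 24 h were all under the signal of 17.5 used for the filter. The AKR/N change was -1.16 ± 0.28 (adjusted p = 0.00944). It was lost without control replicate 1 of AKR/N (adjusted p = 0.101, with a change of -0.77) or 24 h replicate 2 (0.0881), and the other Col25a1 probe set moved by 0.56.

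**Figure D4:**
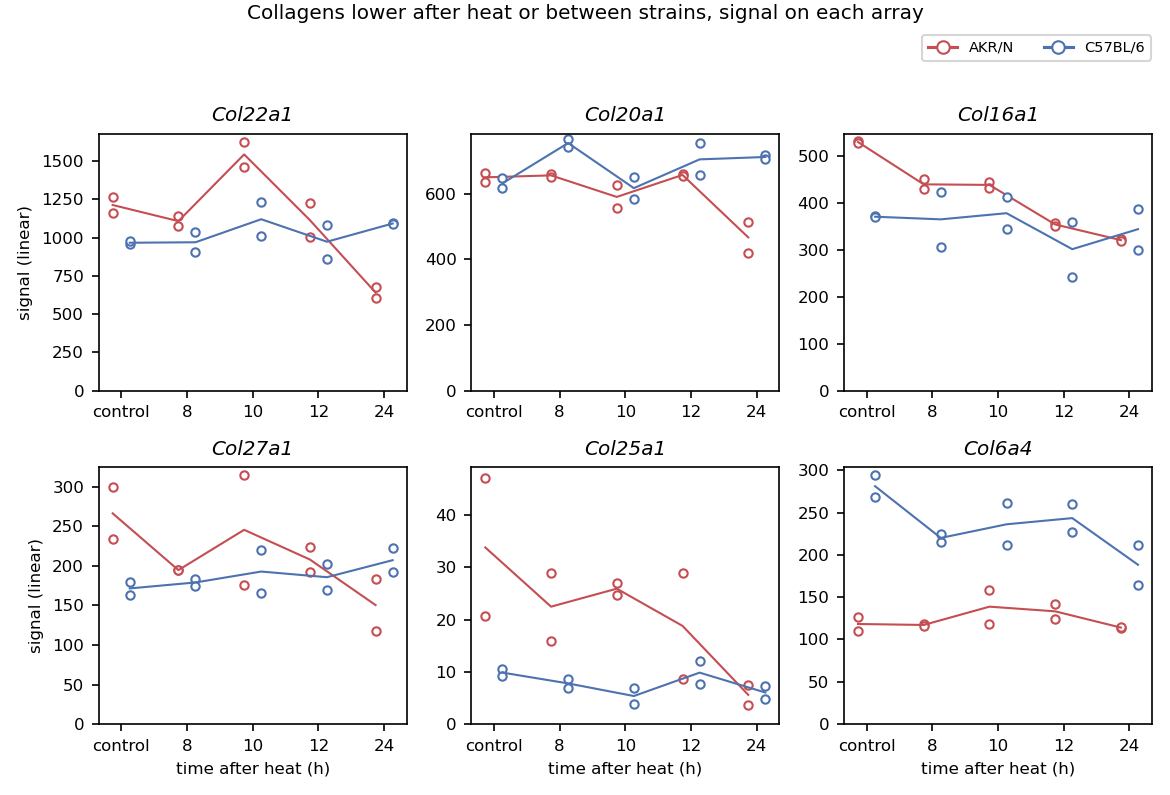
Signal of 5 collagens called lower in AKR/N testes at 24 h and of Col6a4 on each array (open circles, linear scale from 0) in controls and at 8, 10, 12 and 24 h after heat, with lines through the means of 2 arrays, AKR/N in red and C57BL/6 in blue. Col22a1 reads 677 and 605 in AKR/N at 24 h, and all AKR/N arrays of Col6a4 lie below all its C57BL/6 arrays.

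Between the unheated strains few members were called. Markers of Leydig cells, the androgen-producing cells of the interstitium, differed as well. All 5 tested were called higher in AKR/N controls, with sums of 3918 to 4120 in AKR/N and 1791 to 2032 in C57BL/6, and 4 of 5 over the mean of 5 conditions. Their part in the differences below was not tested. In controls 1 member was higher and 1 lower in AKR/N than in C57BL/6 testes, or 4.26% of members, while 6.29% of all genes were called (3.1% higher and 3.19% lower, and 294 of 787 higher after median centring). Col6a4, a type VI collagen chain, had 111 and 126 in AKR/N controls and 268 and 294 in C57BL/6 controls, a difference of -1.15 ± 0.16 (adjusted p = 0.000518). Over the mean of 5 conditions, 10 members were higher and 7 lower in AKR/N, or 36.2% of members, while 27.8% of all genes were called (14.9% higher and 12.9% lower). For Col6a4 the 10 AKR/N arrays lay between 111 and 159 and the 10 C57BL/6 arrays between 165 and 294. It was the only one of the 47 members whose strains did not overlap, and its difference was -0.82 ± 0.07 (adjusted p = 1.05e-06). The matching count of genes without overlap was not made over all tested genes. The other Col6a4 probe set, below the filter, differed by -0.04. In C57BL/6 testes Col6a4 also fell at 24 h, by 0.55 on the log2 scale (adjusted p = 0.0144), and that call was lost without control replicate 2 of C57BL/6 (adjusted p = 0.0948) or 24 h replicate 1 (0.154) and with the mean of all probe sets (0.0707).

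Col26a1, a small collagen first described in testis and ovary, had 62 and 48.7 in AKR/N controls and 15.6 and 16.8 in C57BL/6 controls, with the C57BL/6 pair under the filter signal of 17.5. The difference in controls was 1.14 ± 0.25 (adjusted p = 0.0155) and that over the mean of 5 conditions 0.62 ± 0.11 (adjusted p = 0.000937). The call in controls was lost without control replicate 1 of AKR/N (adjusted p = 0.14), control replicate 1 of C57BL/6 (0.0954) or control replicate 2 of C57BL/6 (0.0836), and with a pseudocount of 1 (0.0636, with a difference of 1.70). After heat Col26a1 was higher in C57BL/6 testes at 10 h by 0.89 ± 0.25 (adjusted p = 0.038), with 49.5 and 38.5 at 10 h. That call ended without any of its 4 arrays in turn (adjusted p of 0.155 and 0.141 without C57BL/6 control replicates 1 and 2, and 0.188 and 0.0881 without 10 h replicates 1 and 2).

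Several type IV chains differed between the strains over the mean of 5 conditions. Col4a3 was lower in AKR/N (-0.67 ± 0.10, adjusted p = 0.000197) on the probe set used, but its other probe set above the filter differed by 0.07, and the mean of both gave -0.30 (adjusted p = 0.0206). Its neighbour Col4a4 was higher (0.38 ± 0.08, adjusted p = 0.00259), with differences of 0.54 and 0.40 on its other probe sets. Col4a6 was higher in AKR/N (0.72 ± 0.19, adjusted p = 0.0121) while its neighbour Col4a5 was not called (0.09 ± 0.09, adjusted p = 0.485). The other Col4a6 probe set, above the filter, differed by 0.19. Col4a1 was lower by 0.30 on this scale (-0.30 ± 0.07, adjusted p = 0.00372), but with the mean of its probe sets the difference was -0.13 (adjusted p = 0.202). Col9a3, a FACIT collagen of cartilage, differed by 0.61 ± 0.16 (adjusted p = 0.0106), and its other probe set above the filter by 0.23. Col17a1, a hemidesmosome collagen, was called (0.62 ± 0.16, adjusted p = 0.0118), but only its AKR/N means at 8 h and 10 h (21.1 and 26.6) reached the filter signal of 17.5. Its C57BL/6 arrays read 1.02 to 10.7, so it entered the test through the groups where it was high and its difference has no firm size. Col4a6 in C57BL/6 controls (8.47 and 4.16) was likewise under that signal. Among laminins Lamb3, Lamb2 and Lama4 were higher in AKR/N, by 0.56, 0.27 and 0.25. Lama4 reached the filter signal only in the 24 h groups, so its difference has no firm size either. The other Lama4 probe set, below the filter, differed by -0.05.

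**Figure D5:**
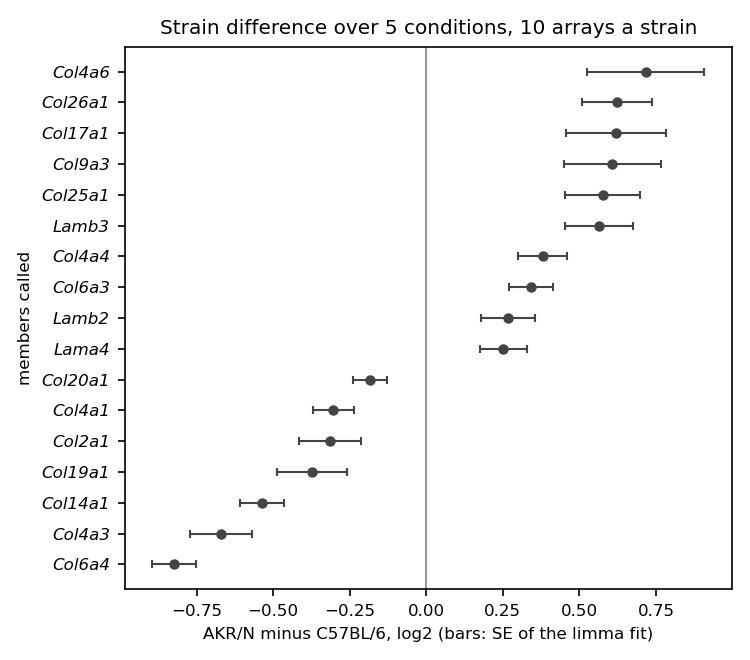
Difference between AKR/N and C57BL/6 testes (AKR/N minus C57BL/6, log2, mean of 5 conditions, 10 arrays a strain) for the 17 members called, with bars for the SE of the limma fit. Col6a4 is lowest at -0.82 and Col4a6 highest at 0.72.

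The strain difference in heat change was not called for any member at 8, 10 or 12 h, where 0%, 0.0317% and 0% of all genes were called. An unadjusted p under 0.05 was seen for 2, 3 and 4 of 47 members, and for 892, 1941 and 1477 of all 15762 genes. At 24 h the interaction was below 0 for 36 of 47 members, with a median of -0.39 against -0.07 over all tested genes. It was above 0 for 23.4% of members and 43.6% of all tested genes. After median centring the medians of members and all genes were -0.26 and 0.06. The control difference was above 0 for the same number of members, 36 of 47 or 76.6%, and for 57.2% of all tested genes. Its median was 0.31 against 0.06 over all genes. The interaction and the control difference use the same 4 control arrays, so they are not separate findings. The actin 3′ to 5′ ratio also moved with the 24 h comparisons. It was 2.14 and 2.17 in AKR/N testes at 24 h, against 2.92 and 2.39 in AKR/N controls, and 2.84 and 2.58 in C57BL/6 testes at 24 h, against 2.14 and 2.46 in C57BL/6 controls. The groups of each strain did not overlap and ran in opposite directions, and the part of this in the changes at 24 h was not tested.

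The partners of these chains were described from lists of genes that bind, make, cut or sense collagen and laminin. Over all tested genes 12.3% were called higher and 11.1% lower in AKR/N at 24 h, and 21.4% higher and 16.6% lower in C57BL/6, and the counts below are to be read beside these shares. Of 12 basement membrane partners tested, 1 was called higher and 2 lower in AKR/N at 24 h, and 4 higher and none lower in C57BL/6. Ntn4, a laminin-related netrin, changed by 0.80 ± 0.18 in AKR/N and 1.21 ± 0.18 in C57BL/6 (adjusted p = 0.00822 and 0.000207). Nid1, which links laminin to type IV collagen, changed by 0.36 in AKR/N (adjusted p = 0.105) and 0.56 in C57BL/6 (adjusted p = 0.0107). Sparc, a collagen-binding protein, changed by 0.42 (adjusted p = 0.052) and 0.60 (adjusted p = 0.00545), and Fbln1 was not called in either strain. Those lower in AKR/N were Hspg2 (perlecan, -0.79) and Smoc2 (-0.60), named because the count is small and after their values were seen.

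Of 21 genes of collagen synthesis and processing, 3 were higher and none lower in AKR/N at 24 h, and 7 were higher and none lower in C57BL/6. Plod2, a lysyl hydroxylase that prepares collagen for cross-links, rose by 0.93 ± 0.18 in AKR/N and 2.003 ± 0.18 in C57BL/6 (adjusted p = 0.00329 and 6.15e-06). P4ha1, a prolyl hydroxylase subunit needed for stable helices, rose by 0.72 ± 0.17 in AKR/N and 1.37 ± 0.17 in C57BL/6 (adjusted p = 0.00991 and 5.39e-05). Its partner subunit P4hb changed by 0.34 in AKR/N (adjusted p = 0.0695) and rose by 0.75 in C57BL/6 (adjusted p = 0.000461), and this difference between strains was not called (adjusted p = 0.231). Pcolce, which speeds removal of the procollagen tail, rose by 0.64 in AKR/N and 0.49 in C57BL/6 (adjusted p = 0.00114 and 0.00198). Serpinh1, the heat-inducible chaperone of procollagen and chosen after its values were seen, was not called at 24 h, at -0.24 ± 0.33 in AKR/N (adjusted p = 0.644) and 0.80 ± 0.33 in C57BL/6 (adjusted p = 0.0692).

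Of 20 genes of collagen and matrix breakdown, 7 were higher and none lower at 24 h in each strain. They included the lysosomal proteases Ctsb (0.77 in AKR/N and 1.43 in C57BL/6) and Ctsl (0.55 and 0.75). They also included the metalloproteinase inhibitors Timp1 (1.31 and 2.69) and Timp3 (1.12 and 1.51), whose known action is against breakdown. Among 14 receptors for collagen and laminin, 3 were higher and 1 lower in AKR/N, and 6 higher and 1 lower in C57BL/6. The collagen receptor kinase Ddr1 rose by 1.35 ± 0.25 in AKR/N and 2.33 ± 0.25 in C57BL/6, the laminin-binding integrin Itga6 by 1.06 and 2.27, and the syndecan Sdc4 by 1.28 and 1.81. Ddr2, a second collagen receptor kinase, rose in C57BL/6 by 1.04 (adjusted p = 0.00085) and changed by 0.35 in AKR/N (adjusted p = 0.205). The receptor lower in each strain was Itgb4, at -1.01 in AKR/N and -1.02 in C57BL/6, named after its values were seen. Of 20 other matrix proteins, 5 were higher and none lower in AKR/N, and 9 higher and 2 lower in C57BL/6. Dcn, a proteoglycan that binds type I fibrils, rose by 1.42 ± 0.16 in AKR/N and 1.76 ± 0.16 in C57BL/6 (adjusted p = 0.000241 and 6.77e-06). Efemp1 rose by 1.27 and 1.52 and Tgfbi by 0.62 and 1.02, while the fibrillin Fbn2 changed by -0.30 in AKR/N (adjusted p = 0.228) and -1.09 in C57BL/6 (adjusted p = 0.000239).

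Markers of several somatic cell types moved with the collagens and laminins at 24 h, when 12.3% of all tested genes were higher in AKR/N and 21.4% in C57BL/6. The summed signal of 6 interstitial fibroblast markers was 1186 to 1489 in AKR/N testes at 24 h, against 589 to 598 in AKR/N controls. In C57BL/6 testes it was 1285 to 1438 at 24 h, against 497 to 520 in controls. Of these markers 3 were higher and none lower in AKR/N, and 4 higher and 1 lower in C57BL/6. Dcn, Lum and Mfap5 are in this list as well as among the other matrix proteins. Of 9 Sertoli markers tested, 4 were higher in AKR/N and 5 in C57BL/6, and their sum was 11089 to 11271 in AKR/N at 24 h, against 8644 to 9163 in controls, and 11538 to 12129 in C57BL/6 at 24 h, against 7259 to 7652 in controls. Macrophage markers were higher for 4 of 8 in each strain, with sums of 1389 to 1494 in AKR/N at 24 h, against 889 to 997 in controls, and 1075 to 1126 in C57BL/6 at 24 h, against 627 to 657 in controls. At 24 h Clec3b (fibroblasts), Cd163 in C57BL/6 (macrophages) and Pecam1 and Tie1 (endothelium) had group means below the filter on low signal. Peritubular myoid markers were higher for 3 of 8 in AKR/N and 2 of 8 in C57BL/6, and endothelial markers for 1 of 7 and 3 of 7. The myoid sum was 4475 to 4882 in AKR/N at 24 h, against 3568 to 3883 in controls. In C57BL/6 it was 4358 to 4500 at 24 h, against 3650 to 3712 in controls. The endothelial sum was 252 to 307 in AKR/N at 24 h, against 189 to 223 in controls. In C57BL/6 it was 329 to 353 at 24 h, against 166 to 193 in controls. Leydig markers were higher for none and lower for 2 of 5 in AKR/N, and higher for 2 and lower for 2 of 5 in C57BL/6. Their sum was 2326 to 2420 in AKR/N at 24 h, against 3918 to 4120 in controls. In C57BL/6 the 24 h and control sums overlapped, at 1945 to 2236 and 1791 to 2032. Of 6 spermatocyte markers, 1 was higher and 3 lower in each strain, of 8 spermatid markers 1 was higher in each, and no adipose or epididymis marker was called among 2 tested of each. The part of these cell types in the collagen and laminin changes was not tested.

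The genes whose group means followed Col3a1 most closely over the 10 groups were Gcdh (Pearson's r = 0.974), Tmem176b (0.959), Hipk2 (0.955), Tceal9 (0.936) and Stx3 (0.935). These correlations describe 10 means that share arrays and scaling.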

How the data were processed

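Total RNA of testes was measured on 20 arrays in 10 groups of strain and time. The deposited table holds 1 intensity per probe set and array, taken as linear because no value is negative and the high tail is long. The software of the authors is not given in the sources used here. After trimming 2% at each end, the mean was 125.001 on every deposited array. Groups were taken from the sample titles, and the age from the series design. The values were put on a log2 scale here, as log2 of the deposited intensity plus a pseudocount of 16. Of 45101 probe sets, 34945 had 1 gene in the chip annotation and were used, with 64 control probe sets left out, and members had 101 such probe sets. The rule's look-alike Col4a3bp is named Cert1 in the annotation and was not selected. Genes were tested when their highest group mean reached the 40th percentile of all probe sets (log2 5.07).

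Group means were fitted by a linear model with limma 3.58.1 in R 4.3.3 and moderated by empirical Bayes (prior degrees of freedom 3.54, residual 10), with Benjamini-Hochberg adjustment over 15762 genes. It was tested on simulated data. The 14 comparisons were 8 of heat against control, 1 between strains in controls, 1 between strains over 5 conditions, and 4 interactions. Alternatives were other pseudocounts, filters, scalings, probe-set choices and sets of arrays, a replicate block and leaving out each array. The main fit did not pair samples by replicate number. Deviations from group means correlated with r of -0.277 to 0.298 in 45 pairs of groups (median -0.009), and 4 exceeded 0.1. Whether some groups share a pairing cannot be told from these values. The members, lists and tests were chosen with earlier results of these data known. Named members were those with the largest called heat changes, highest signals, largest strain differences and called interactions. Col6a2, Lama5, Lamb2, Lamb3, Lamc1 and Lamc3 were named after their values were seen. In the partner lists the genes with the smallest adjusted p were named. Promoters and gene neighbours come from RefSeq (GRCm38.p6). Figures were drawn with matplotlib 3.10.9 in Python 3.11.15.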

Additional observations from a re-analysis of the deposited data

Results flagged for a closer look

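Col22a1 differed between the strains in its change at 24 h, with an interaction of -1.08 that was called (adjusted p = 0.0276) on the probe set used and not with the mean of its probe sets.

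For the members below, both arrays of one strain moved one way and both of the other strain the opposite way against their controls. The interaction was not called. With 2 arrays a group, separation from controls within a strain is common. At 24 h it was seen for 28 of 47 members in AKR/N and 32 in C57BL/6. At 8 h, where none was called, it was seen for 21 and 17. The share over all genes was not counted. At 24 h the differences, AKR/N minus C57BL/6, were -0.92 for Col15a1 (adjusted p = 0.137), -0.64 for Col20a1 (0.075), -1.03 for Col27a1 (0.123) and -0.67 for Lamb2 (0.202). Col15a1 changed by -0.45 in AKR/N and 0.47 in C57BL/6, and Lamb2, a laminin beta chain, by -0.17 and 0.50. At 12 h they were -0.95 for Col26a1 (adjusted p = 0.446) and -0.74 for Col4a6 (0.729). At 10 h the difference was -1.45 for Col4a6 (adjusted p = 0.353), and at 8 h it was -0.44 for Col6a3 (0.895). All of these have AKR/N below C57BL/6 and use the same control arrays.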

How the results depend on the processing

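Of the 24 h calls followed in C57BL/6 testes, those of Col1a1, Col1a2, Col3a1, Col4a1, Col4a2, Col4a5 and Lama1 held in every alternative run. Of those followed in AKR/N testes, that of Col4a5 did. The 24 h calls of Lama4, Col2a1 and Col6a1 in C57BL/6 and of Col27a1 in AKR/N were not followed singly through the alternatives. The other counts moved as follows. Fitting only the arrays of a comparison gave 0 members called at 10 h and 12 h in each strain, 4 at 24 h in AKR/N and 0 for the 24 h interaction. The mean of all probe sets gave 4 members at 24 h in AKR/N and 0 for the 24 h interaction, and it reversed Col22a1 in AKR/N at 24 h (0.14) and in the interaction (0.18). The 60th percentile filter gave 4 members in controls and 2 for the 24 h interaction, and a pseudocount of 1 gave 1 in controls. The causes were not tested, except that a comparison's own arrays give fewer arrays to estimate the spread.

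Without each array in turn, the members called ranged from 0 to 1 at 10 h, 1 to 3 at 12 h and 3 to 10 at 24 h in AKR/N. They ranged from 1 to 4 at 10 h, 2 to 5 at 12 h and 9 to 15 at 24 h in C57BL/6. The AKR/N count at 24 h was 5 without control replicate 1 of AKR/N and 3 without 24 h replicate 2, and the C57BL/6 count was 9 without control replicate 2 of C57BL/6 or 24 h replicate 1. The ranges were 1 to 3 in controls, 13 to 18 over 5 conditions, 0 to 1 for the 24 h interaction and 0 for all others.

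With the replicate number as a block, the counts were 1, 2 and 10 in AKR/N and 4, 4 and 14 in C57BL/6 at 10, 12 and 24 h, and all 43 calls of named members for which the block was run were kept. Removing Col4a3bp from the members left nothing to run. Arrays of 2 per group limit what can be called, and dim probe sets such as that of Col25a1 sit near background.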
